A study of Mus musculus with 4 samples.

Results

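γδ T cells were a small cluster in the CD45+ infiltrate of 20967 melanomas. In the deposited annotation 54 of 4108 cells carried this cluster name, 43 in the control channel and 11 in the glucocorticoid (GC) channel. All cells with that name were used, and they made up 54 of the 1945 cells in the 8 lymphoid clusters (γδT, CD8 1 to CD8 4, CD4, Tregs and NK). 20967 is a mouse melanoma line from a C57BL/6 background with the alleles Nras+LSL-G12D and Tyr::CreERT2+/o, and it was injected intradermally into wild-type C57BL/6 hosts. In the control group 5 tumors received a control preparation, and in the GC group 5 tumors received clobetasol propionate, a potent topical GC. Each tumor was marked with its own hashtag, the 5 tumors of a group were pooled, and 17100 control cells and 3500 GC cells were loaded on separate channels for 3′ single cell RNA sequencing. Treatment and channel were the same split and cannot be told apart. A single tumor line was studied, in hosts with their own immune system.

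γδ T cells carry a receptor made of a γ and a δ chain in place of the α and β chains of CD4+ and CD8+ T cells. Most take on either of a pair of programs before they leave the thymus. Type 17 γδ T cells make IL-17A, respond to IL-23 and IL-1 and settle in skin, while interferon-γ (IFN-γ) type cells use Tbx21 and Cd27 and share cytotoxic genes with CD8+ T cells and NK cells. The cells were compared with the 7 other lymphoid clusters to describe which program and which receptor chains they carried. Because these genes were also used to form the clusters, their levels, ratios and counts are descriptions and carry no test.

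The γ and δ chains are told apart by their variable genes, and 4 of these genes carry the pattern described further down. Their germline 3′ ends are shown so that the chains seen in these cells can be told apart. Each run is the last 90 bases of the GENCODE M21 transcript (GRCm38), 5′ to 3′, with the codon of the conserved cysteine near the junction in capitals. Tcrg-V6 (chromosome 13, 19190356 to 19190929, + strand) and Tcrg-V4 (chromosome 13, 19184974 to 19185506, + strand) encode γ chains, and Trdv4 (chromosome 14, 54074905 to 54075515, + strand) and Trdv5 (chromosome 14, 54148662 to 54149294, - strand) encode δ chains.
Tcrg-V6: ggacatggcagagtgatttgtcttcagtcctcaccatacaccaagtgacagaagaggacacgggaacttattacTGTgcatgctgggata
Trdv4: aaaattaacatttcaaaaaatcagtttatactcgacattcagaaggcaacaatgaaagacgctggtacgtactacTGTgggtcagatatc
Tcrg-V4: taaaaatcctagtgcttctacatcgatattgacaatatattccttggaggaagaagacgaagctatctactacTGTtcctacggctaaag
Trdv5: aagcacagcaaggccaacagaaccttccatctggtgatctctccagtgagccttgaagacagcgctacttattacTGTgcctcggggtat

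γδT cells had a median of 6974 UMIs (unique molecular identifiers, which count captured RNA molecules) and 2614 genes, and the other lymphoid clusters had medians of 6221 to 12778 UMIs. Over the 54 cells 381165 UMIs were summed, 303706 from the control and 77459 from the GC channel, and levels are given as UMIs of a gene per 10000 UMIs of the summed cells. Intervals are 95% intervals for counting error only. No barcode was shared between the channels. The cells came from 9 of 10 tumors: 8, 13, 5, 8 and 9 cells in control replicates 1 to 5, and 0, 2, 6, 2 and 1 cells in GC replicates 1 to 5.

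The receptor genes matched the name of the cluster. Trdc, the constant part of the δ chain, was at 5.35 UMIs per 10000 (95% interval 4.64 to 6.14), with a UMI in 34 of 54 cells and in 8 of 9 tumors, against 0.621 (0.481 to 0.789) in the NK cluster, which had the highest level among the other 7. By tumor, Trdc was at 7.47, 9.06, 2.46, 4.57 and 4.06 per 10000 in control replicates 1 to 5, and at 2.09, 0.232, 7.19 and 0 in GC replicates 2 to 5. The groups overlapped, and the tumors below the lowest control were 3 GC tumors with 2, 6 and 1 cells. Tcrg-C1, a γ constant gene, was at 3.57 (2.99 to 4.22) in 38 cells from all 9 tumors, where it ranged from 2.09 to 5.08, against 0.216 (0.158 to 0.289) in the CD4 cluster. Tcrg-C2 was at 1.78 in 26 cells, against 0.408 in the CD4 cluster. Tcrg-C4 was less restricted, at 1.08 in 24 cells against 0.714 in NK cells and 0.547 in the CD4 cluster. Tcrg-C3 was not seen in any of the 54 cells, which allows up to 5.56% of cells with a UMI. In the Tcrg-C1 and Tcrg-C2 genes, which are close copies, the split of reads between them is uncertain. At least 1 of the 4 detected constant genes was found in 47 of 54 cells (87.0%, 75.1 to 94.6), and all 7 cells without one held a UMI of the scavenger receptor genes described below.

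Trac and the coreceptor genes were low in these cells, and the β constant genes were less so. The 4 genes of the T cell receptor complex, which γδ and αβ T cells share, were all present, with Cd3e at 3.99 in 42 cells and Cd247 at 5.48 in 44 cells. Trac, the constant part of the α chain, was at 0.761 (0.510 to 1.09) in 12 cells, against 2.65 to 4.88 in the 6 other T cell clusters. Both β constant genes were more frequent, with Trbc2 at 3.07 (2.54 to 3.68) in 40 cells, close to the 3.55 of Tregs, and Trbc1 at 1.68 in 28 cells, against 2.86 to 4.12 in the other T cell clusters. Cd4 was at 0 UMIs, Cd8a had 3 UMIs in 3 cells and Cd8b1 had 1. Together 45 of 54 cells held a UMI of Trac, Trbc1 or Trbc2, and 6 cells held both Trdc and Trac. The source of this signal was not tested.

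Genes of the type 17 program set the cluster apart. Of 6918 genes with a UMI in at least 5 of the 54 cells, 54 genes (0.781%) were at least 4-fold above every other lymphoid cluster on a scale with 0.1 added to both levels, and the cells were grouped on such genes. On the same scale the median over all 6918 genes was -0.35 (log2). Among 10 type 17 factors 9 were measured in at least 5 cells, and 4 of these passed 4-fold, Sox13, Blk and Zbtb16 among them. Sox13, a factor of fetal type 17 γδ cells, was at 1.23 in 22 cells, against at most 0.0140. Blk, a Src family kinase needed by these cells, was at 3.91 (3.31 to 4.59) in 40 cells, against at most 0.0720. Zbtb16, which encodes PLZF and marks innate-like T cells, was at 7.32 (6.49 to 8.23) in 44 cells, with NK cells next at 0.482. Maf, at 11.1 in 52 cells, was high in Tregs as well (14.5), and Rora, at 20.5, was at 23.0 there.

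Receptors for the cytokines that drive IL-17A were part of this set. Il23r, a chain of the IL-23 receptor, was at 7.29 (6.46 to 8.20) in 44 cells, against at most 0.270 in Tregs. By tumor it was at 10.7, 6.30, 8.21, 7.03 and 9.23 in control replicates 1 to 5 and at 0, 5.10, 4.98 and 0 in GC replicates 2 to 5, so that every GC tumor lay below every control tumor. This order was seen after the values were known and was not tested, and 3 of the 4 GC values come from 2, 2 and 1 cells. Il1r1, the IL-1 receptor, was at 5.27 (4.57 to 6.05) in 39 cells, against 0.158 in the CD4 cluster. Il18r1 at 16.2 and Il7r at 19.2, which bind IL-18 and IL-7, were less restricted, with the next clusters at 13.0 and 10.3. Igf1r, the receptor of insulin-like growth factor 1, was at 18.8 (17.4 to 20.2) in 51 cells against 0.631 in NK cells. Outside the lymphoid clusters Igf1r reached 16.1 in the highest myeloid cluster, and 86.4% of neutrophils held a UMI of it. In all, 10 of 25 type 17 receptor and surface genes passed 4-fold, with Tmem176a, Tmem176b, Actn2, Aqp3 and Kcnk1 beside the receptors named here and the 2 scavenger receptor genes. Ccr6 (0.656 in 13 cells) and Cxcr6 (8.24 in 48 cells), chemokine receptors of type 17 and tissue T cells, were next to Tregs at 0.493 and CD8 2 at 9.72.

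**Figure D1:**
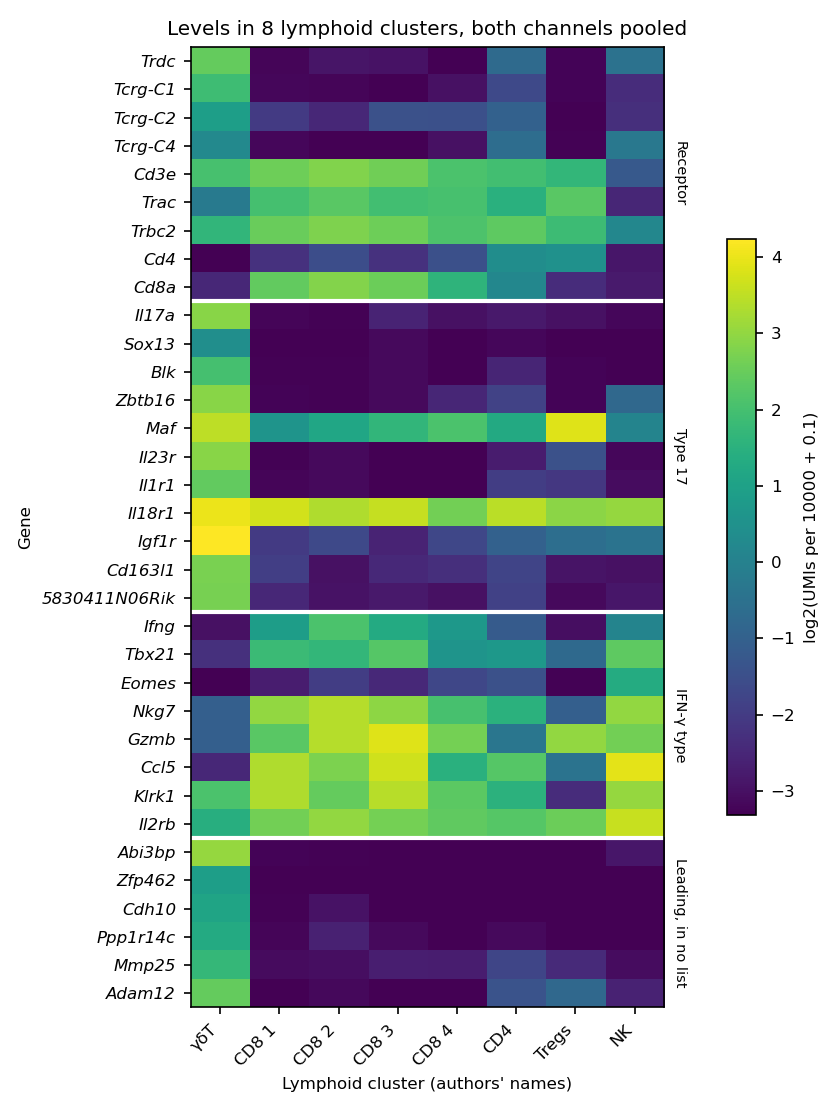
Levels of 34 genes (rows, grouped by role) in 8 lymphoid clusters (columns), shown as log2(UMIs per 10000 + 0.1) over the summed cells of both channels. The γδT column is bright for Trdc, Il17a, Il23r, Blk and Igf1r and dark for the IFN-γ type genes Ifng, Tbx21, Eomes and Ccl5, each of which is higher in a CD8 or the NK column.

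Il17a (chromosome 1, 20730905 to 20734496, + strand) was the cytokine gene with the highest level in the cluster among those listed. It was at 7.29 per 10000 (6.46 to 8.20), with a UMI in 25 of 54 cells, against at most 0.0699 (0.0227 to 0.163) in the CD8 3 cluster. The 54 cells held 278 of the 307 Il17a UMIs of all lymphoid cells (90.6%) and 25 of their 39 cells with a UMI. Il17f had 4 UMIs in 3 cells, and Il22 had 0. Of 13 other lymphocyte cytokine and growth factor genes 5 had a UMI in at least 5 cells and 0 passed 4-fold, with Ltb at 2.47 in 35 cells, Tgfb1 at 2.26 in 26 and Tnf at 0.603 in 8, and Csf1, Il2, Il4 and Il21 were at 0. After every cell was thinned to 4000 UMIs, 17 of 46 γδT cells (37.0%, 23.2 to 52.5) held Il17a, against 0.276% of tumor-associated macrophages (TAMs), a class that should lack it. Without thinning the share was 46.3% (32.6 to 60.4), and TAMs held a UMI in 2 of 766 cells. The UMIs were uneven: 1 cell held 103 and another 61, which was 59.0% of all Il17a UMIs, while 11 of the 25 positive cells held 1 or 2. Without those 2 cells the level was 3.15 per 10000.

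**Figure D2:**
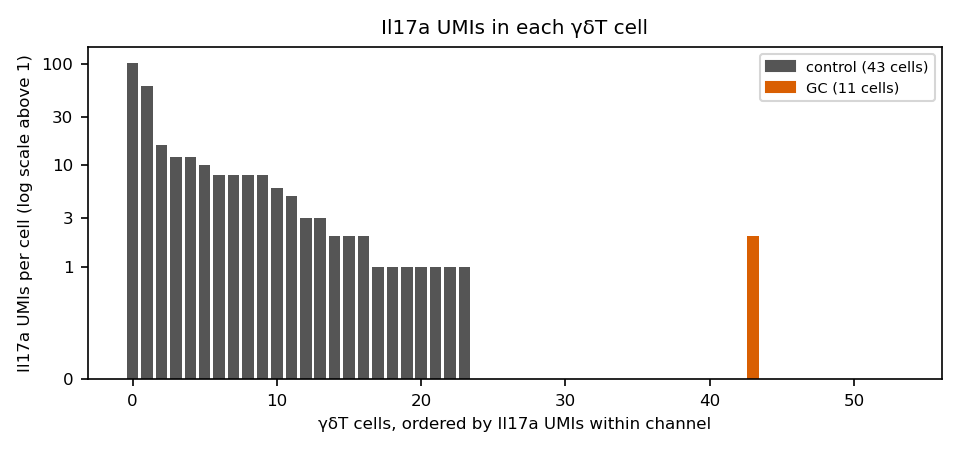
Il17a UMIs in each of the 54 γδT cells, 1 bar per cell ordered within channel, on an axis that is logarithmic above 1. In the control channel (gray, 43 cells) 24 cells held between 1 and 103 UMIs, and in the GC channel (orange, 11 cells) 1 cell held 2.

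Ifng, Tbx21 and several cytotoxic genes of the IFN-γ program were at or near 0, while other genes of its list were not. Of 23 IFN-γ type genes 6 had no UMI in the 54 cells, Eomes, Ncr1, Gzma, Xcl1 and Cd160 among them, 8 had a UMI in at least 5 cells, and 0 passed 4-fold above the other clusters. Ifng itself had 1 UMI in 1 cell, which was 0.0262 per 10000 (0.000664 to 0.146), against 4.18 in CD8 2. Tbx21, the factor of this program, was at 0.105 in 3 cells against 5.01 in NK cells, and Cd27, which marks the precursors of IFN-γ type γδ cells, was at 0.184 in 4 cells. Nkg7, a cytotoxic gene, was at 0.394 in 4 cells against 10.3 in CD8 2, and 13 of its 15 UMIs came from GC replicate 3. The cytotoxic genes Gzmb and Prf1 were at 0.394 and 0.210 in 9 and 7 cells, against 14.5 in CD8 3 and 5.99 in NK cells. Ccl5, a chemokine gene, was at 0.0787 in 3 cells against 15.2 in NK cells. The NKG2D gene Klrk1 (4.15 in 37 cells), Il2rb (2.54 in 35 cells) and Stat4 (4.96 in 48 cells) held most of the UMIs, each below the highest other cluster. The whole list summed to 14.7 per 10000, against 28.7 in Tregs and 45.8 to 135 in the CD8, CD4 and NK clusters. Cytokine calls by cell followed the same split, with 26 cells holding Il17a or Il17f without Ifng, 0 holding Ifng alone, 1 holding both and 27 holding neither.

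Against the pooled CD8 clusters 1 to 3, a comparison added after the data were examined, 145 of 6232 genes (2.33%) were at least 4-fold higher in γδT cells and 126 (2.02%) at least 4-fold lower. The 6232 genes averaged at least 0.2 per 10000 over both, and their median log2 difference was 0.02. On this scale 5 of 9 tested type 17 factors and 12 of 23 tested receptor and surface genes were higher and 0 were lower, while 13 of 19 tested IFN-γ type genes were lower and 0 were higher. Of 7 tested exhaustion and checkpoint genes 5 were lower and 0 higher. Pdcd1, the gene of PD-1, was still at 2.86 in 28 cells, against 10.1 in CD8 2. Tox was at 9.26, above the 3.96 of the pooled CD8 clusters and below the 13.0 of Tregs.

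Other cell types that share some of these genes were looked for with their markers. The 4 NK markers summed to 0.0525 per 10000 against 15.7 in the NK cluster, with Ncr1 at 0. Foxp3 was at 0, and the 5 Treg genes summed to 11.0 against 144 in Tregs, most of it Ikzf2 and Il2ra. Of 6 genes of MAIT and NKT cells Zbtb16 carried nearly all of the sum. The 8 myeloid markers summed to 1.76, against 1.80 to 3.60 in the other lymphoid clusters, and the 5 proliferation genes to 0.210 against 35.5 in CD8 4. For group 2 innate lymphoid cells, Il5, Il13 and Klrg1 were at 0, and Gata3 was at 1.10 against 5.01 in Tregs. Of 12 genes of the epidermal γδ and repair list 7 were detected, 4 of them in at least 5 cells. Itgae was at 3.04 in 32 cells, and the list summed to 8.24, against 10.2 to 40.1 in the other lymphoid clusters. Skint1, Klre1, Fgf7, Fgf10 and Igf1 of this list were at 0. Areg, a repair factor, had 2 of the 381165 UMIs of the cluster, while Tregs were at 6.95 per 10000.

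Beyond the gene lists, 10 of the 20 genes with the largest ratio to every other lymphoid cluster were in no list. Abi3bp, an extracellular matrix gene, led at 8.19 per 10000 (7.30 to 9.15) in 41 cells against at most 0.0371, a log2 ratio of 5.92. Its level by tumor was 9.45, 9.72, 3.83, 15.1 and 8.68 in control replicates 1 to 5 and 0, 2.32, 2.21 and 1.5 in GC replicates 2 to 5, and the groups did not overlap, which was not tested. Mmp25, a membrane-bound metalloproteinase, was at 3.15 in 45 cells, and Adam12, another metalloproteinase, at 5.40 in 45 cells, against 0.202 and 0.490 in the highest other lymphoid cluster. Mmp25 was not limited to lymphoid cells, and 95.3% of DC 1 cells, a dendritic cell cluster, held a UMI of it. The cadherin Cdh10 (2.05 in 21 cells), the phosphatase inhibitor gene Ppp1r14c (2.36 in 30 cells), and Zfp462 (1.78 in 25 cells) were at or under 0.0604 in each other lymphoid cluster. Edil3, Mtcl1, Fstl4 and Ablim3 completed the set, with 9 to 18 cells each. Il17re, a receptor of the IL-17 family, was also among the 54 genes, at 0.787 in 21 cells, and is named after its values were seen.

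At the other end were genes that the other T cell clusters shared. Of genes at 1 per 10000 or more in every other T cell cluster, the 10 with the smallest ratio to the lowest of these clusters were Cd6, Gm20275, Inpp4b, Hopx, Cd2, A430093F15Rik, Themis, Prkch, Gm8369 and Prkcb. Cd6 and Cd2, adhesion and costimulatory receptors, were at 0.0262 in 1 cell and 0.315 in 8 cells, where the lowest other T cell cluster was at 1.81 and 2.83. Themis, needed for αβ T cell selection in the thymus, was at 0.577 in 4 cells against 4.05. Inpp4b, a lipid phosphatase, was at 2.10 in 26 cells against 17.

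The cells split further by a pair of scavenger receptor genes that lie side by side on chromosome 7 (GRCm38). Cd163l1, also called Scart1, runs from 140218267 to 140231145 and 5830411N06Rik, also called Scart2, from 140247284 to 140300736, both on the + strand. Cd163l1 was at 6.51 per 10000 (5.72 to 7.37) in 25 cells from 8 tumors, and 5830411N06Rik at 6.32 (5.55 to 7.17) in 34 cells from all 9 tumors, against at most 0.192 and 0.178 in the other lymphoid clusters. 16 cells held only Cd163l1, 25 held only 5830411N06Rik, 9 held both and 4 held neither. By tumor, cells with only Cd163l1 numbered 4, 3, 2, 0 and 3 in control replicates 1 to 5 and 0, 3, 1 and 0 in GC replicates 2 to 5. Cells with only 5830411N06Rik numbered 3, 9, 1, 5 and 3 and then 2, 2, 0 and 0. Both kinds were thus found in 4 of 5 control tumors and in 1 GC tumor.

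Some variable genes were seen mostly on one side of this split. 3′ libraries rarely reach the variable segment, and a γ variable gene was seen in 23 cells and a δ variable gene in 14. Tcrg-V6 had 11 UMIs in 6 cells, and all 6 held only Cd163l1. Trdv4, whose chain pairs with that of Tcrg-V6 in a known invariant receptor, had 34 UMIs in 9 cells, of which 8 held only Cd163l1 and 1 held both, and 5 cells held Tcrg-V6 with Trdv4. Tcrg-V4 had 5 UMIs in 4 cells, 3 with only 5830411N06Rik and 1 with only Cd163l1. Trdv5 had 5 UMIs in 4 cells, and all 4 held only 5830411N06Rik. No cell held Tcrg-V6 with Tcrg-V4 or Trdv4 with Trdv5. The sequences printed above are the ends of these 4 genes. Trdv5 overlaps the 3′ end of Trdc by 207 bases on the opposite strand, and whether counting used strand is not given in the sources used here, so its UMIs are uncertain. Trgv2 had 29 UMIs in 17 cells, spread over all 4 classes, and Tcrg-V1, Tcrg-V3, Tcrg-V5 and Tcrg-V7 were at 0.

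**Figure D3:**
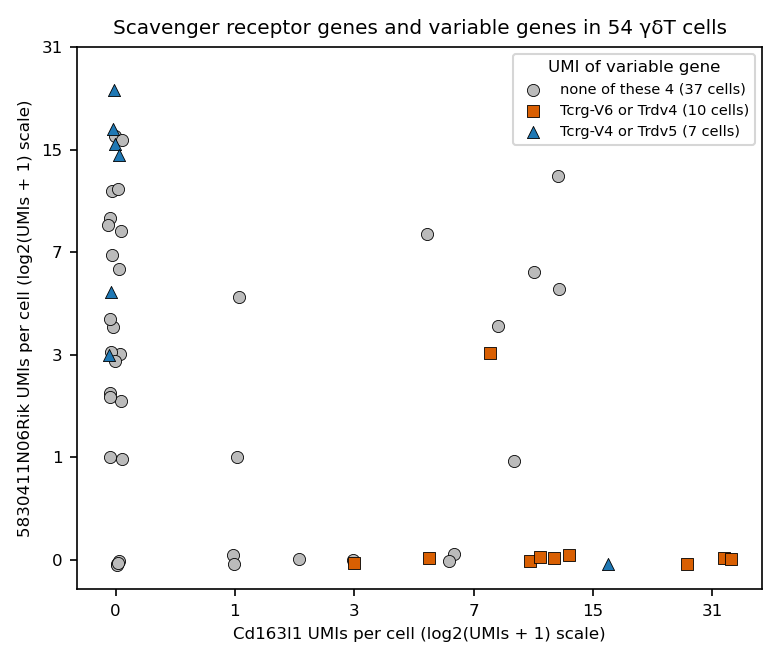
UMIs of Cd163l1 (x axis) and 5830411N06Rik (y axis) in each of 54 γδT cells, both on a log2(UMIs + 1) scale with a small fixed jitter, marked by the variable genes read in the cell. The 10 cells with Tcrg-V6 or Trdv4 (squares) all held Cd163l1, and 6 of the 7 with Tcrg-V4 or Trdv5 (triangles) lay on the axis without it.

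Both classes carried the type 17 program. Blk was seen in 13 of 16 cells with only Cd163l1 and in 20 of 25 with only 5830411N06Rik, and Il23r in 15 and 19. Il17a was at 1.73 per 10000 (1.11 to 2.58) in 6 of the 16 and at 9.05 (7.62 to 10.7) in 15 of the 25, the latter with 61 of its 142 UMIs in 1 cell. The 9 cells with both genes held 111 Il17a UMIs, 103 of them in 1 cell. Zbtb16 was at 12.8 (11.0 to 14.8) with only Cd163l1 and 3.70 (2.81 to 4.78) with only 5830411N06Rik, and Il1r1 at 7.87 (6.47 to 9.50) and 2.74 (1.98 to 3.69). Abi3bp ran the other way, at 4.77 (3.69 to 6.07) and 11.0 (9.44 to 12.8). These intervals cover counting only, the median depth was 8439 and 6627 UMIs, and cells of 1 tumor are not replicates, so no test was made. Channels and tumors were pooled unevenly: 4 of the 16 and 4 of the 25 cells were from the GC channel, and 9 of the 25 from control replicate 2. The part of this in the contrasts was not tested.

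Not every cell with Trdc was in the cluster. Of 100 lymphoid cells with a Trdc UMI 34 were γδT cells, 31 were in the NK cluster, 24 in the CD4 cluster and 11 in CD8 or Treg clusters. Of the 24 cells in the CD4 cluster 23 held Cd3e, 17 Tcrg-C4, 3 Trac and 2 Cd4, and 15 held 3 or more Trdc UMIs. None of the 24 held Il17a, Il23r or Blk (upper bound 0.181 per 10000 for each), while Lef1 was in 20 and Tbx21 in 11. Lef1 marks naive T cells. The 31 cells in the NK cluster held Ncr1 in 24, Eomes in 20 and Cd3e in 6, with Trdc at 2.25 per 10000 among them. Among γδT cells with Trdc, 20 of 34 held Il17a, 29 held Il23r, 10 held Lef1 and 3 held Tbx21. These genes were chosen after the data were examined. Of the 24 and 31 cells, 23 and 30 were from control tumors, as were 253 of the 263 CD4 and 107 of the 111 NK cluster cells.

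**Figure D4:**
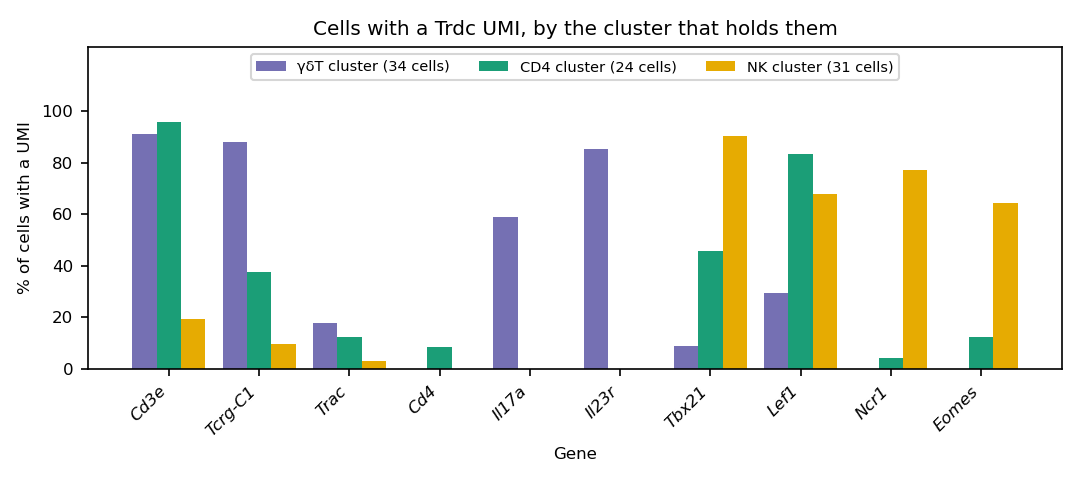
Percentage of cells with a UMI of each gene (x axis) among lymphoid cells that held a Trdc UMI, by the cluster that held them: γδT (34 cells), CD4 (24 cells) and NK (31 cells). Il17a and Il23r have a bar only for the γδT cluster, and Ncr1 and Eomes have bars only for the other 2.

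The next comparison asked whether γδT cells differed between GC and control tumors. They made up 2.28%, 3.16%, 0.795%, 3.17% and 5.77% of lymphoid cells in control replicates 1 to 5, and 0%, 11.8%, 10.5%, 15.4% and 2.00% in GC replicates 1 to 5. The groups overlapped, and the GC percentages rest on 9 to 57 lymphoid cells per tumor. The share was 3.04% ± 1.81 (SD, n = 5) in controls and 7.94% ± 6.62 (n = 5) after GC, a difference that did not exceed the spread (exact two-sided permutation test, p = 0.159, Benjamini-Hochberg adjusted p = 0.212 over 4 comparisons). The 0 of 9 lymphoid cells in GC replicate 1 allows a share of up to 33.3%.

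Il17a was at 4.42, 11.6, 28.2, 3.69 and 3.32 per 10000 in control replicates 1 to 5 and at 0, 0.464, 0 and 0 in GC replicates 2 to 5. The groups did not overlap, and the fall of 2.92 on the scale of log2(UMIs per 10000 + 1), from 3.06 ± 1.18 (n = 5) to 0.14 ± 0.27 (n = 4), exceeded the spread (exact permutation p = 0.0159, below which 5 against 4 tumors cannot go, adjusted p = 0.0317). In cells, Il17a was seen in 24 of 43 control cells (55.8%, 39.9 to 70.9) and in 1 of 11 GC cells (9.09%, 0.230 to 41.3). The value of control replicate 3 came from a single cell with 103 UMIs. The values of 0 in GC replicates 2, 4 and 5 come from 2, 2 and 1 cells, with 9571, 18079 and 6675 UMIs of all genes. With so few cells a 0 does not show that Il17a was absent. Without the 2 cells with the most Il17a the difference was -1.75 and did not pass (exact permutation p = 0.0794, adjusted p = 0.159). Without the cells that held Trac, Trbc1 or Trbc2 UMIs it was -1.36 and did not pass either (exact permutation test, adjusted p = 0.533). That setting left 3 tumors per group, too few for the test to pass. With any 1 tumor left out the difference was -3.16 to -2.47 and did not pass, again with too few tumors to do so.

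Fkbp5, a direct target of the GC receptor, went the other way. It was at 1.83, 0.552, 2.19, 0.528 and 1.66 per 10000 in control replicates 1 to 5 and at 8.36, 6.26, 4.43 and 12 in GC replicates 2 to 5, with no overlap. The rise of 1.89 on the log2 scale, from 1.17 ± 0.50 (n = 5) to 3.06 ± 0.54 (n = 4), exceeded the spread (exact permutation p = 0.0159, adjusted p = 0.0317). It did not pass without cells that held Trac, Trbc1 or Trbc2 UMIs (1.32, exact permutation test, adjusted p = 0.267) or with any 1 tumor left out (1.68 to 2.10). Both kinds of setting left too few tumors for the test to pass, with 3 per group in the first. Tsc22d3, which encodes GILZ, was at 2.13, 1.44, 1.09, 0.352 and 1.85 and then at 5.22, 3.25, 0 and 0, and the difference of -0.01, from 1.19 ± 0.48 to 1.18 ± 1.38, was within the spread (exact permutation p = 1.00, n = 5 and 4). The GC values rest on few UMIs, with 9571, 43134, 18079 and 6675 of all genes in replicates 2 to 5, against 36545 to 90529 in the controls.

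**Figure D5:**
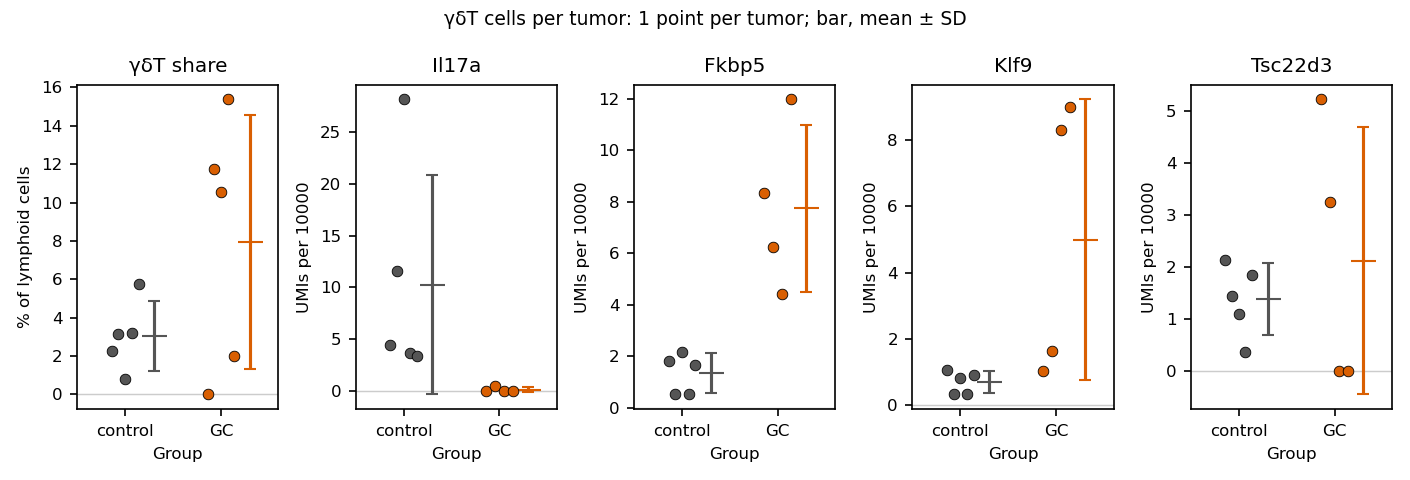
Share of γδT cells among lymphoid cells (percent) and levels of Il17a, Fkbp5, Klf9 and Tsc22d3 in γδT cells (UMIs per 10000), 1 point per tumor for control (gray) and GC (orange), with mean ± SD beside them; 5 GC tumors are shown for the share and 4 for the genes. The Il17a and Fkbp5 points of the groups do not overlap, and those of the share and Tsc22d3 do.

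Other genes of the GC list are given by channel, with counting intervals and no test. Klf9 was at 0.659 (0.402 to 1.02) in control and 3.74 (2.51 to 5.38) in GC cells, and its tumor values, 0.331 to 1.07 and 1.04 to 8.99, overlapped. Dusp1, a phosphatase induced by GCs and by cell handling, was at 8.17 (7.18 to 9.25) and 30.6 (26.8 to 34.8), with tumors at 2.77 to 11.9 and 3.00 to 37.6. Ddit4 was at 0.362 (0.181 to 0.648) and 1.68 (0.894 to 2.87). Without GC replicate 4 the GC value of Klf9 was 2.36, and without GC replicate 5 that of Ddit4 was 0.706. The intervals overlapped for Per1 (0.593 and 1.03), Sgk1 (0.263 and 0.775), Zbtb16 (6.82 and 9.30) and Mt1 (0.230 and 0.129), and Mt2 and Cd163 were at 0. Nr3c1, the GC receptor, was present in all 54 cells at 17.6 per 10000 (16.2 to 18.9), above the 13.3 of Tregs, and was at 15.5 and 25.4 in the 2 channels. Its tumor values, 6.02 to 18.6 and 10.4 to 31.1, overlapped, and without GC replicate 3 its GC value was 18.4. Pooled by channel in the same way, Fkbp5 in γδT cells was at 1.22 (0.858 to 1.68) in control and 6.58 (4.90 to 8.66) in GC cells. Tsc22d3 in γδT cells was at 1.42 (1.02 to 1.91) and 2.45 (1.48 to 3.83), with overlapping intervals. In CD8 clusters 1 to 3 Fkbp5 was at 0.762 (0.694 to 0.834) and 2.50 (2.20 to 2.82), and Tsc22d3 at 1.45 (1.36 to 1.55) and 5.32 (4.89 to 5.79). Whether the 2 cell types differ in these changes was not tested.

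Other type 17 genes are also given by channel, with no test. Over 10 factors the sum was 54 (51.4 to 56.6) per 10000 in control and 51.4 (46.5 to 56.7) in GC cells, and over 25 receptor and surface genes it was 154 (150 to 159) and 124 (116 to 132). Rora (20.1 and 22.1) was the largest part of the factor sum. Maf (11.9 and 7.88), Blk and Sox13 were lower in GC cells with intervals apart. So were Il23r, Il18r1 (18.1 and 8.91), Ccr2 (7.28 and 2.97), Cxcr6 (9.45 and 3.49), 5830411N06Rik, Itgb7, Ramp1 and S100a4 among the surface genes. Igf1r (16.6 and 27.2) went the other way with intervals apart. Blk was at 4.61 (3.88 to 5.44) and 1.16 (0.531 to 2.21). Sox13 was at 1.51 (1.11 to 2.02) and 0.129 (0.00327 to 0.719), and 25 of the 46 control UMIs of Sox13 came from control replicate 2, without which it was at 0.985, while its tumor values in control replicates 3 to 5, 0.547, 0.528 and 0.554, were next to the 0.553 of GC replicate 4. Il1r1 was at 5.04 (4.27 to 5.90) and 6.20 (4.57 to 8.22). Trdc was at 6.19 (5.34 to 7.14) and 2.07 (1.18 to 3.35), so the cells of the GC channel also held less of the gene that marks the cluster. The GC value of Trdc rests on GC replicate 4, without which it was 0.505, and that of Blk without GC replicate 3 was 0.583. IFN-γ type genes summed to 11.8 (10.6 to 13.0) and 26.3 (22.8 to 30.2). Within this sum Klrk1 was at 2.44 and 10.8, Klrc1 at 0.263 and 3.23 and Nkg7 at 0.0659 and 1.68, while Stat4 was at 5.04 and 4.65 and Il2rb at 2.60 and 2.32. All 13 Nkg7 UMIs of the GC channel came from GC replicate 3, and without that tumor Klrc1 was at 1.75 and Klrk1 at 8.45. The 3 genes of the α and β chains summed to 6.26 (5.40 to 7.21) and 2.58 (1.58 to 3.99), the 8 myeloid markers to 2.11 (1.62 to 2.69) and 0.387 (0.0799 to 1.13), and the coreceptors to 0.132 and 0, with the chain sum at 1.17 without GC replicate 3. The median depth was 7136 UMIs per cell in control and 5985 in GC cells, and the median mitochondrial share 2.74% and 2.09%. The part of these differences in the results above was not tested.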

How the data were processed

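CD45+ cells of 5 control and 5 GC-treated tumors were studied, in 1 channel per group. The authors counted UMIs with Cell Ranger 7.1.0 on mm10 (GRCm38) with intronic reads included, worked in R 4.3.1 with Seurat 5.0.3, kept cells with 1 hashtag and removed quality outliers found with Scater. The deposited expression values are the natural log of 1 plus UMIs per 10000 UMIs of the cell. The deposited cell table gives the count of UMIs, genes and hashtag UMIs, the percent of mitochondrial UMIs, and the cluster name. Back-transformed values gave whole UMIs (tolerance 0.01) for 100% of 10330441 values, and in each of 4108 cells they added up to the total in the cell table. No doublet caller was run here, and doublets within 1 tumor may remain.

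The replicate was the tumor, named by hashtag order. UMIs were summed over cells with Python 3.11.15, numpy 2.4.6 and scipy 1.17.1. Intervals are exact (Poisson for levels, Clopper-Pearson for shares). Ratios used a pseudocount of 0.1 and tumor levels 1. The share and 3 genes were compared by exact two-sided permutation over 252 or 126 arrangements of tumors, with Benjamini-Hochberg adjustment over these 4. Genes named were all list genes, the 20 with the largest ratio to the highest other lymphoid cluster (UMI in at least 5 cells and 3 tumors) and the 10 with the smallest to the lowest other T cell cluster. Members and lists were chosen with earlier results of these data known. Alternatives changed the gene filter, pseudocount, denominator, minimum of cells per tumor, cells with αβ chain UMIs and each tumor in turn. Fold calls were tested on simulated data. Gene positions are from GENCODE M21.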

Additional observations from a re-analysis of the deposited data

Results flagged for a closer look

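Of 26 groups of 4 or 5 tumors tested for a single tumor far from the others, 3 stood out. The cut-off would mark about 1 in 20 groups of normally distributed values by chance. Some of these groups hold low counts and zeros, so that rate may not hold here. Il1r1 was at 11.8 UMIs per 10000 in control replicate 3, the highest of the 5 controls, with a gap of 0.841 of the range of the group. Il17a was at 0.464 in GC replicate 3 (2 UMIs) and Sox13 at 0.553 in GC replicate 4 (1 UMI), and for each gene the other 3 GC tumors were at 0, so that the gap was the whole range by construction. Both counts are under 3 UMIs.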

How the results depend on the processing

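The share of γδT cells did not pass under any of 14 alternatives, with differences of 3.04 to 6.88 percentage points when 1 tumor was left out, 2.30 over all CD45+ cells and 1.37 without cells with Trac, Trbc1 or Trbc2 UMIs, against 4.90. The Il17a difference ranged from -3.16 to -2.47 and the Fkbp5 difference from 1.68 to 2.10 when 1 tumor was left out, and no such setting passed (adjusted p 0.0571 to 0.0714), since fewer tumors allow no smaller p. With tumors of at least 2 γδT cells the differences were -2.88 for Il17a and 1.68 for Fkbp5, and neither passed for the same reason. Without cells that held Trac, Trbc1 or Trbc2 UMIs, which left few cells, they were -1.36 and 1.32 (exact permutation tests, adjusted p = 0.533 and 0.267). This removal left 3 tumors per group, too few for either test to pass. Without the 2 cells with the most Il17a UMIs, an alternative chosen after seeing the data, the Il17a difference was -1.75. Tsc22d3 turned to 0.39 with tumors of at least 2 cells, to 0.50 without cells with α or β chain UMIs and to 0.0126 without cells with Trac, and ranged from -0.49 to 0.39 when 1 tumor was left out. The number of genes at least 4-fold above every other lymphoid cluster was 20 with a pseudocount of 0.5 and 28 without cells with α or β chain UMIs, against 54, and 52 to 56 when 1 tumor was left out. In that same removal Cdh10 (-0.38) and Mtcl1 (-0.043) fell below the highest other cluster. The cause of these changes was not tested. Of 26 genes in the text that were at least 4-fold above, 17 were so under every alternative run. No paired analysis was possible because the labels give the groups no shared replicate numbers. Depth was limited by 11 GC cells.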
